A study of Mus musculus with 2 samples.

Results

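Haem and iron handling genes are described here by 10 genes, chosen by name from the 54532 genes with deposited values. They cover the breakdown of haem (Hmox1, Blvrb), the storage of iron (Fth1, Ftl1, Ncoa4), its transport across membranes (Slc11a1, Slc11a2, Slc40a1), a transcription factor of iron-recycling macrophages (Spic) and the hormone that limits iron export (Hamp). RNA was sequenced from macrophages of the aorta, sorted on F4/80 and CD11b, of ApoE-/- mice on a C57BL/6J background with an age of 6 weeks in the labels. The 2 groups were models of syndromes of traditional Chinese medicine. Phlegm-Dampness Retention (PDR) syndrome was made by 4 weeks of high-fat diet. The model of Spleen and Kidney Yang Deficiency (SKYD) used 4 weeks of propylthiouracil, which lowers thyroid hormone, at a daily dose of 10 mg/kg, followed by a high-fat diet for 2 weeks. Cells of 5 mice were pooled into 1 library in each group, so no difference has a replicate check, and effects of the syndrome, the drug, the length of the diet and age cannot be told apart.

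Macrophages take up old red blood cells and open the haem ring to free its iron. The iron is held inside the ferritin shell or leaves the cell through ferroportin, the product of Slc40a1, and hepcidin, the product of Hamp, removes ferroportin from the cell surface. When iron is scarce, iron regulatory proteins bind a short RNA hairpin, the iron-responsive element, and in the 5′ UTR this holds back translation, so that mRNA and protein of these genes need not move together.

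The hairpin was searched in the annotated transcripts as a C, a stem of 5 bases, the loop CAGTGN and the paired stem, with G-T pairs allowed. Of the 10 genes, 3 held it in the 5′ UTR, against 31 of all 21951 protein-coding genes (0.141%). They are shown as the members in which this pattern was found, and capitals mark the loop. Slc11a2, of which 1 form is known to carry an iron-responsive element in its 3′ UTR, had no match to these letters, and nothing is drawn from that about its control.
Fth1, chr19:9982731-9982760, plus strand: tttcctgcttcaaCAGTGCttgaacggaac
Ftl1, chr7:45459779-45459808, minus strand: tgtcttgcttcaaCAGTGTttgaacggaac
Slc40a1, chr1:45925465-45925494, minus strand: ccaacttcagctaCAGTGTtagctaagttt
These stretches lie in exons and are given on build GRCm38 with the transcripts of GENCODE M21. A match is a description of letters, and FPKM does not measure translation.

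The PDR library had 23086889 recovered reads on genes and the SKYD library had 25427863. Levels are FPKM, which scales reads to gene length and library size. The library sizes behind the deposited FPKM were 23487992 in PDR and 24993633 in SKYD, 1.02 and 0.983 times these reads. The deposited levels thus carry a scaling between the libraries beyond the reads on genes, and its source was not given with the values. Differences are log2(FPKM + 1) in PDR minus SKYD among the 10399 genes whose mean FPKM reached 1, termed tested genes, and this scale understates changes of low genes. The 95% intervals are exact (Clopper-Pearson) limits for the share of a gene's reads that fell in PDR, and they cover counting error only. All 10 genes reached the mean FPKM of 1, Slc40a1 only through its level in SKYD.

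Before the iron genes, the labels were set against marker genes. Adgre1, which encodes F4/80, had an FPKM of 87.3 in PDR and 93.3 in SKYD, and Itgam, which encodes CD11b, had 8.84 and 14.4. Apoe, the deleted gene, had an FPKM of 345 in PDR and 67.7 in SKYD, and gene totals cannot tell which part of the transcript was read. Markers of other cell types also had reads in both libraries, and their values stand beside the results they move with. In these bulk libraries, fewer cells of a type and less RNA per cell cannot be told apart.

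Hmox1 and Spic were higher in SKYD by more than 2-fold, and none of the 10 genes was higher in PDR by that much. Among all tested genes, 719 (6.91%) passed 2-fold toward SKYD, 767 (7.38%) toward PDR and 14.3% in either direction. The median difference of the 10 genes was -0.61, beside -0.0035 for all tested genes, and 7 of the 10 were lower in PDR, with Slc11a2 among them within counting error. At 1.5-fold, 5 of the 10 genes were higher in SKYD, against 15.0% of tested genes, and 1 was higher in PDR, against 15.1%. The 10 general macrophage markers had a median of -0.34, with 4 higher and 6 lower in PDR and 1, Cd14, past 2-fold. Centring on that median, an alternative chosen after the data were seen, adds 0.34 to every difference and changes the split of all 2-fold calls from 51.6% higher in PDR to 74.3%. It puts 13% of tested genes past 2-fold toward PDR and 4.50% toward SKYD. With it, Hmox1 alone of the 10 genes was past 2-fold toward SKYD, at -1.02, and Hamp was past 2-fold toward PDR, at 1.25. Counting error does not place either of them on one side of 2-fold under this centring.

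**Figure D1:**
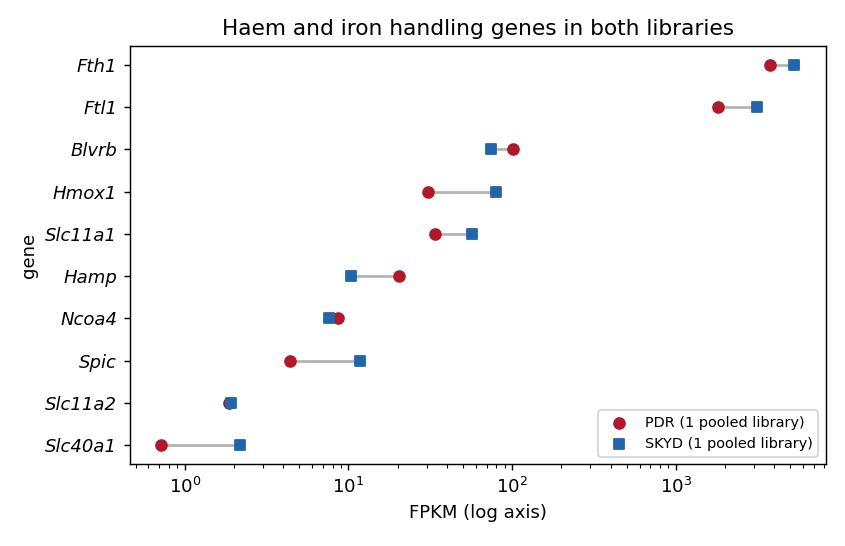
FPKM of the 10 haem and iron handling genes on a log axis, with a circle for the PDR library and a square for the SKYD library. The ferritin genes Fth1 and Ftl1 lie far to the right of the others, and Slc40a1 and Slc11a2 lie at the low end.

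**Figure D2:**
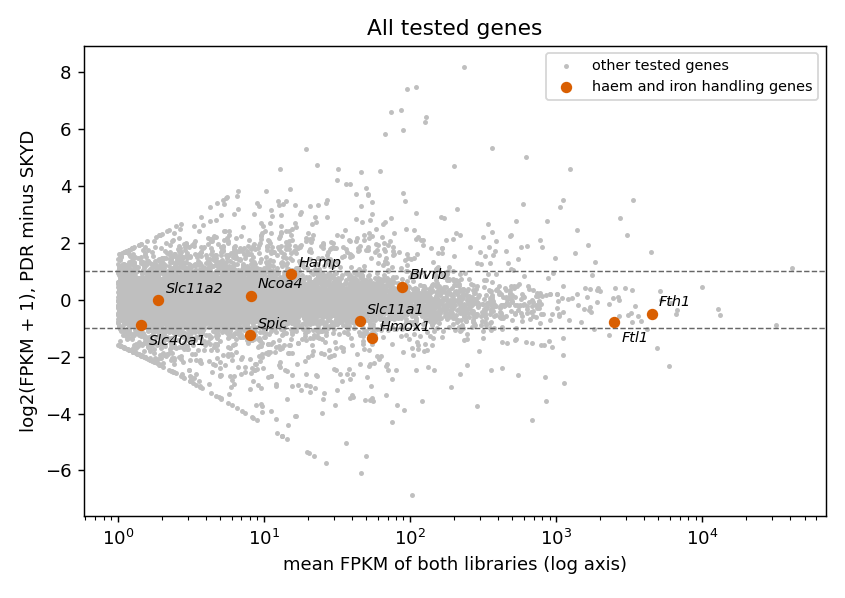
Difference in log2(FPKM + 1), PDR minus SKYD, against mean FPKM on a log axis for the 10399 tested genes in grey, with the 10 haem and iron handling genes in orange and dashed lines at 2-fold. Hmox1 (-1.36) and Spic (-1.24) lie below the lower line.

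Haem breakdown starts with haem oxygenase, which opens the ring and releases iron, carbon monoxide and biliverdin. Hmox1 (ENSMUSG00000005413, chromosome 8 from 75093621 to 75100589) encodes the inducible form of this enzyme. Its FPKM was 30.4 in PDR and 79.5 in SKYD, from 1251 and 3480 reads. The level was 2.61-fold higher in SKYD (95% CI 2.45 to 2.79), a log2 difference of -1.36 (95% CI -1.45 to -1.27). Hmox2 encodes the constitutive form, and its FPKM was 66.0 in PDR and 64.7 in SKYD. The ratio of Hmox1 to Hmox2 in FPKM was 0.461 in PDR (95% CI 0.431 to 0.492) and 1.23 in SKYD (95% CI 1.17 to 1.29). The inducible form was thus the lower of the pair in PDR and the higher in SKYD.

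Blvrb (ENSMUSG00000040466, chromosome 7 from 27447978 to 27466144), a biliverdin reductase that also reduces flavins, had the highest mean FPKM of the haem breakdown list, although Hmox1 was above it in SKYD. It had an FPKM of 101.9 in PDR and 73.8 in SKYD, a difference of 0.46 (95% CI 0.41 to 0.51). Blvra, the main biliverdin reductase of adult tissues, had 56.0 and 48.6. Hmox1 therefore stood apart within its list. The other 3 of its 4 genes had higher FPKM in PDR, by less than 2-fold, and for Hmox2 the difference of 0.03 (95% CI -0.04 to 0.10) was within counting error.

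Ferritin is a shell of heavy chains, which oxidise iron, and light chains, which help to form its mineral core. Fth1 (ENSMUSG00000024661, chromosome 19 from 9982703 to 9985092) encodes the heavy chain and had the highest FPKM of the 10 genes, 3753 in PDR and 5261 in SKYD. Its difference was -0.49 (95% CI -0.50 to -0.47). Ftl1 (ENSMUSG00000050708, chromosome 7 from 45457944 to 45459884) encodes the light chain and had 1820 in PDR and 3143 in SKYD, a difference of -0.79 (95% CI -0.80 to -0.77). Both ferritin genes were under 2-fold, and both carry the hairpin printed above.

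By rank of FPKM among all genes, Fth1 was number 16 in PDR and 13 in SKYD, and Ftl1 was number 47 and 24. Together they took 0.579% of reads in PDR (95% CI 0.576 to 0.582) and 0.862% in SKYD (95% CI 0.858 to 0.865), by exact binomial limits. They made up 90.7% of the reads of the 10 genes in PDR and 92.5% in SKYD, so a sum over the 10 genes is mostly ferritin. The ratio of Fth1 to Ftl1 in FPKM was 2.06 in PDR and 1.67 in SKYD. The light chain differed more between the libraries than the heavy chain.

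Ftl1 shares sequence with annotated copies. Of the windows of 100 bases in its transcripts, 44.7% also occur in transcripts of 6 other genes, 33.7% in Ftl1-ps1, so its reads may have been split or lost in counting. The share was 0.21% for Fth1 and 16.0% for Ncoa4. With the reads of the copy rows added, the difference of Ftl1 was -0.79, as without them. The rows added were those of the named ferritin copies, which may not cover all 6 genes.

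Ncoa4 (ENSMUSG00000056234, chromosome 14 from 32159865 to 32179855) encodes the receptor that carries ferritin to the lysosome, where its iron is released. It had an FPKM of 8.57 in PDR and 7.64 in SKYD, a difference of 0.15 (95% CI 0.06 to 0.23). Of the storage list, 5 of 6 genes were tested, 0 passed 2-fold and 4 were lower in PDR, with a median of -0.38. Mitochondrial ferritin, Ftmt, had 0 reads in both libraries, which allows up to 3 in each.

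**Figure D3:**
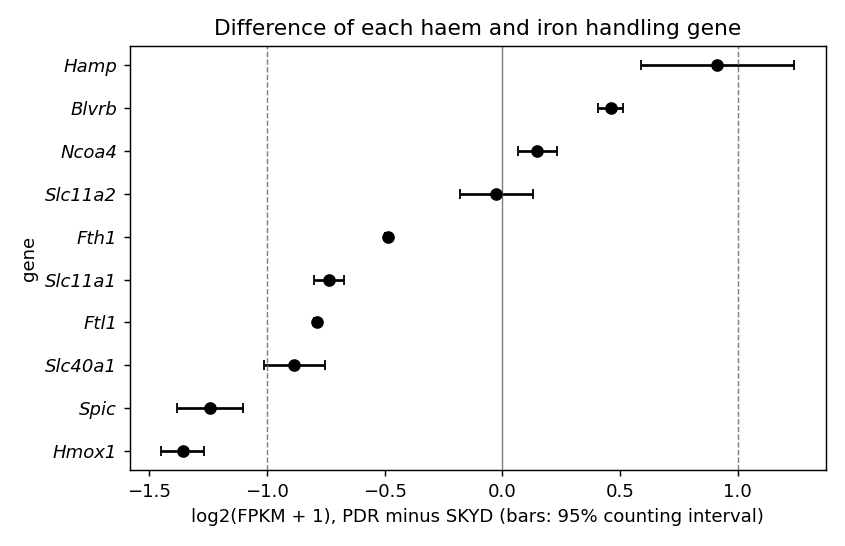
Difference in log2(FPKM + 1), PDR minus SKYD, for each of the 10 genes, with bars for the 95% interval from counting error alone and dashed lines at 2-fold. Hmox1 and Spic lie past -1, and the bar of Slc11a2 crosses 0.

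The transporters move iron out of vesicles or out of the cell. Slc11a1 (ENSMUSG00000026177, chromosome 1 from 74375195 to 74386062) encodes Nramp1, which carries metal ions across the phagosome membrane of macrophages. It had an FPKM of 33.6 in PDR and 56.7 in SKYD, a difference of -0.74 (95% CI -0.80 to -0.67). Slc11a2 (ENSMUSG00000023030, chromosome 15 from 100387898 to 100425072) encodes DMT1, which moves iron out of endosomes in most cells. It had 1.87 and 1.92, a difference of -0.03 (95% CI -0.18 to 0.13) that was not detectable at this depth. Slc11a1 was thus the dominant of the pair by FPKM, 18.0 times Slc11a2 in PDR (95% CI 15.9 to 20.4) and 29.5 times in SKYD (95% CI 26.3 to 33.3).

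Slc40a1 (ENSMUSG00000025993, chromosome 1 from 45908068 to 45926523) encodes ferroportin, the exporter of cellular iron, and was the lowest of the 10 genes by mean FPKM. It had 0.719 in PDR and 2.17 in SKYD, from 152 and 489 reads. In FPKM it was 3.02-fold higher in SKYD (95% CI 2.52 to 3.65), the highest fold of the 10 genes toward either library. On the log2(FPKM + 1) scale its difference was -0.88 (95% CI -1.01 to -0.75), under 2-fold. Whether Slc40a1 counts as past 2-fold thus depends on the pseudocount and the scale. The difference was -1.47 at a pseudocount of 0.1 and -1.07 when rescaled to TPM. Its hairpin, printed above, lies in the 5′ UTR.

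Ferroportin needs a ferroxidase to load iron onto transferrin. Cp, which encodes the ferroxidase ceruloplasmin, had the highest mean FPKM of the iron export list, with 2.15 in PDR and 1.12 in SKYD, a difference of 0.58, and Slc40a1 was above it in SKYD. Heph and Hephl1, the other ferroxidase genes listed, had 0 reads in both libraries.

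Spic (ENSMUSG00000004359, chromosome 10 from 88674772 to 88685015) encodes a transcription factor that haem induces in monocytes and that red pulp macrophages of the spleen need. It had an FPKM of 4.39 in PDR and 11.8 in SKYD, from 396 and 1129 reads. It was 2.68-fold higher in SKYD (95% CI 2.39 to 3.01), a difference of -1.24 (95% CI -1.38 to -1.10). The other red pulp markers did not share one direction. Treml4, the most abundant of them, had 48.7 in PDR and 29.2 in SKYD, Vcam1 had 2.46 and 13.5, and Itgad had 1 and 30 reads. Of the 3 tested, Spic and Vcam1 were past 2-fold toward SKYD, and the median was -1.24, which is the value of Spic itself. The summed FPKM of the 4 markers, Spic included, was 55.6 in PDR and 54.7 in SKYD and is mostly Treml4.

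Hmox1, Slc40a1 and Spic, the 3 genes with the highest folds toward SKYD in FPKM, had the same direction as the markers of vessel wall and peritoneal macrophages, while Kupffer cell and general macrophage markers were divided. All 6 markers of vessel wall macrophages were lower in PDR, 4 of them past 2-fold, with a median of -1.20 and a summed FPKM of 45.4 in PDR and 124 in SKYD. Cbr2 had their highest mean FPKM, with a difference of -1.79, F13a1 was above it in PDR, and the list includes the haemoglobin receptor Cd163. All 8 markers of peritoneal macrophages were lower in PDR, 4 of them past 2-fold, with a median of -1.23, a summed FPKM of 574 and 1402, and Alox15 as the most abundant gene (-1.53). Of the 4 tested Kupffer cell markers, Marco was higher in PDR (0.84), Timd4 was within counting error, and Vsig4 (-3.25) and Cd5l were lower, Vsig4 past 2-fold. Their median was -0.26, their summed FPKM was 148 and 227, Cd5l was the most abundant of them (-0.53), and Clec4f, the defining marker, had 37 and 41 reads. The 10 general macrophage markers had a summed FPKM of 23000 in PDR and 42978 in SKYD, mostly Lyz2 (-0.90), so that this sum says little of the 4 markers that were higher in PDR. T cell genes, given below, were also higher in SKYD. The part of these cell types in the results for the iron genes was not tested.

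Erythroid genes are given because red blood cells bring the haem. Of 12 markers, 6 were tested, 2 were higher and 4 lower in PDR, and none passed 2-fold. Their median was -0.29 and their summed FPKM was 20989 in PDR and 28335 in SKYD, with Hba-a1, a haemoglobin chain, as the most abundant (-0.53). The early erythroid factor Klf1 had 0 reads in PDR and 7 in SKYD. The part of red cell RNA was not tested.

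Hamp (ENSMUSG00000050440, chromosome 7 from 30942368 to 30944032) encodes hepcidin, which is made mainly by hepatocytes and in smaller amounts by macrophages. It had an FPKM of 20.4 in PDR and 10.3 in SKYD, from 196 and 106 reads. In FPKM it was 1.97-fold higher in PDR (95% CI 1.55 to 2.52), a difference of 0.91 (95% CI 0.59 to 1.24), so that depth does not place it on one side of 2-fold. This difference was the largest of the 3 genes that were higher in PDR, ahead of Blvrb and Ncoa4. Its copy Hamp2 had 13 reads in PDR and 1 in SKYD.

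All 12 hepatocyte markers were past 2-fold toward PDR, with a median of 1.83 and folds in FPKM from 2.45 to 5.38. Their summed FPKM was 2312 in PDR and 769 in SKYD, and Apoa2 was the most abundant, with 793 and 295. Against Alb, the albumin gene, Hamp stood at 7.89% in FPKM in PDR (95% CI 6.82 to 9.08) and 14.2% in SKYD (95% CI 11.6 to 17.2). Hamp thus differed less between the libraries than Alb did. The part of liver RNA in the Hamp difference was not tested.

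Promoter windows of 250 bases before to 50 bases after the start were found in the RefSeq table (GRCm38.p6) for 7 of the 10 genes and for Hamp2. Hmox1, Slc40a1 and Slc11a2 had no window there. The antioxidant response core TGACNNNGC, searched on both strands, was in 12.4% of all 32851 windows. It was in 1 of the windows of Ncoa4 and in none of those of Blvrb, Fth1, Ftl1, Hamp, Slc11a1 and Spic. Sites further from the start were not searched, so nothing is drawn from its absence. Hamp is controlled in hepatocytes by BMP and by STAT3 signals, and the same 60 bases of the promoters of Hamp and Hamp2 are shown to compare the copies. Capitals mark GGCGCC, the core of the BMP-responsive element (11.9% of all windows on either strand), and TTCTTGGAA, the STAT element (0.417%).
Hamp, chr7:30944097-30944156, minus strand: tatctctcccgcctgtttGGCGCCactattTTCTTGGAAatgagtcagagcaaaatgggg
Hamp2, chr7:30924246-30924305, minus strand: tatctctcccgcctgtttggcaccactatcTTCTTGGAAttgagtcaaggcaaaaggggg
Counted from 1 at the 5′ end of the stretch, Hamp2 differs from Hamp by G22A, T30C, A40T, G48A, A49G and T56G, and the first of these lies in the BMP letters. These matches are descriptions of letters and were not tested for function.

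The wider pathway was taken from 10 lists that together hold 108 genes of the table, of which 77 were tested. Of these, 3 were past 2-fold toward PDR and 5 toward SKYD, the latter including Hmox1 and Spic. Without the 10 genes, 67 were tested, 3 were past 2-fold each way, and the median was -0.04, close to that of all tested genes. Neither count stands above the background of 7.38% of tested genes toward PDR and 6.91% toward SKYD, so they are not a result about the pathway.

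**Figure D4:**
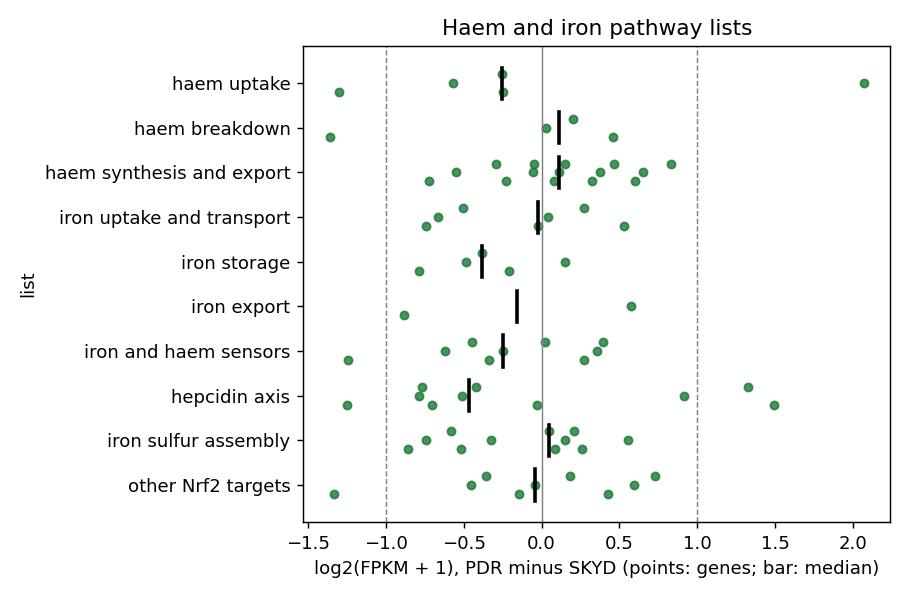
Difference in log2(FPKM + 1), PDR minus SKYD, for each tested gene of the 10 haem and iron pathway lists, with a bar at the median of each list and dashed lines at 2-fold. List medians lie between -0.47 (hepcidin axis) and 0.11 (haem breakdown and haem synthesis).

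The genes past 2-fold toward PDR were Hpx, Tmprss6 and Hfe2, which act in haem binding in plasma and in the control of hepcidin. Hpx encodes hemopexin, the plasma protein that binds free haem, and had an FPKM of 119 in PDR and 27.6 in SKYD, a difference of 2.07 (95% CI 1.97 to 2.16). Tmprss6 encodes a protease that lowers hepcidin, and had 2.13 and 0.250, a difference of 1.32. Hfe2 encodes hemojuvelin, a BMP co-receptor that raises hepcidin, and had 97 and 4 reads, a difference of 1.49 (95% CI 1.28 to 1.60). Hpx and Tmprss6 are made mainly by the liver, and the hepatocyte markers above moved the same way. That part was not tested. Tmprss6 and Hfe2 reached the mean FPKM of 1 only through their level in PDR. Without the filter, the count toward PDR was also 3, among 108 pathway genes, beside 1.57% of all 54532 genes. Toward SKYD it was 5, beside 1.56%, and both shares include genes without reads. At a mean FPKM of at least 5, Hpx alone was past 2-fold toward PDR, beside 8.06% of all tested genes.

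Toward SKYD, besides Hmox1 and Spic, were Cd163, Srxn1 and Id1. Cd163 encodes the receptor for haemoglobin bound to haptoglobin, and had an FPKM of 0.741 in PDR and 3.29 in SKYD, a difference of -1.30 (95% CI -1.46 to -1.14). It reached the mean FPKM of 1 only through SKYD. Srxn1 encodes sulfiredoxin, a target of the factor Nrf2, and had 2.78 and 8.48, a difference of -1.33. Id1 is a target of BMP signals and had 15.3 and 37.6, a difference of -1.25. Centred on the macrophage markers, all 3 were under 2-fold, at -0.96 for Cd163, -0.99 for Srxn1 and -0.91 for Id1. The list of Nrf2 targets without Hmox1 held 9 tested genes. Of these, 4 were higher and 5 lower in PDR, Srxn1 among the latter, with a median of -0.04. Prdx1, the most abundant, had 753 and 775, and its small difference of -0.04 turned positive with 2 of the scalings.

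Haem uptake genes had a median of -0.25 over 5 tested genes, with haptoglobin, Hp, as the most abundant, at 362 in PDR and 537 in SKYD. Of the 15 tested genes of haem synthesis and export, 9 were higher in PDR and none passed 2-fold, with a median of 0.11. Alas2, the erythroid enzyme that starts haem synthesis, had the highest mean FPKM of that list, with 283 and 218, and Tmem14c was above it in SKYD, with 266. Iron uptake and transport had a median of -0.03 over 7 tested genes, -0.50 at a mean FPKM of at least 5 and 0.021 with library sizes without antigen receptor genes. Its highest mean FPKM was that of Lcn2 (51.7 and 50.3), which binds bacterial iron carriers, and Slc11a1 was above it in SKYD. Tfrc, the transferrin receptor, had 1.73 and 1.27, and its 3′ UTR holds 4 matches of the hairpin.

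The genes that sense iron and haem had a median of -0.24 over 9 tested genes, which turned to 0.27 at a mean FPKM of at least 5, and were led by Nfe2l2, which encodes Nrf2, with 29.5 in PDR and 24.3 in SKYD. Of the 10 tested genes of the hepcidin axis, 7 were lower in PDR, with a median of -0.47, or -0.045 over all genes of the list without the filter, and Hfe, the gene of hereditary haemochromatosis, led with 31.1 and 51.1. Iron export had a median of -0.15 over 2 tested genes, and 0 without the filter. Genes that assemble iron-sulfur clusters had a median of 0.05 over 11 tested genes, with 0 past 2-fold, and their scaffold gene Iscu had 62.0 and 93.4. When centred on the macrophage markers, the medians of haem uptake, haem breakdown, synthesis, iron uptake, iron export, the sensors, iron-sulfur assembly and the other Nrf2 targets were above 0, and those of storage and the hepcidin axis were below 0.

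Markers of lymphocytes and neutrophils also differed between the sorted libraries. All 4 tested B cell markers were past 2-fold toward PDR, with a median of 2.49, a summed FPKM of 1663 and 381, and Cd79b with the highest mean FPKM, although Cd79a was above it in SKYD. Of 10 T and NK cell markers, the 5 past 2-fold toward SKYD were the T cell genes Cd3d, Cd3e, Cd3g, Lck and Cd8b1. The 4 past 2-fold toward PDR were Nkg7, Ncr1, Prf1 and Gzma, genes of NK and cytotoxic cells, and Klrb1c was also higher in PDR (0.38). The list median of -0.65 therefore describes neither part. Its summed FPKM was 587 and 1300, and Cd8b1 had the highest mean FPKM, although Gzma was the highest in PDR. Of 11 neutrophil markers, 4 were past 2-fold toward PDR and 0 toward SKYD, with a median of 0.85, a summed FPKM of 4882 and 3730, and S100a9 as the most abundant. None of the 5 endothelial markers reached a mean FPKM of 1, the most abundant was Cldn5, and their summed FPKM was 1.11 and 0.710. The part of these cells in the differences of the iron genes was not tested.

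**Figure D5:**
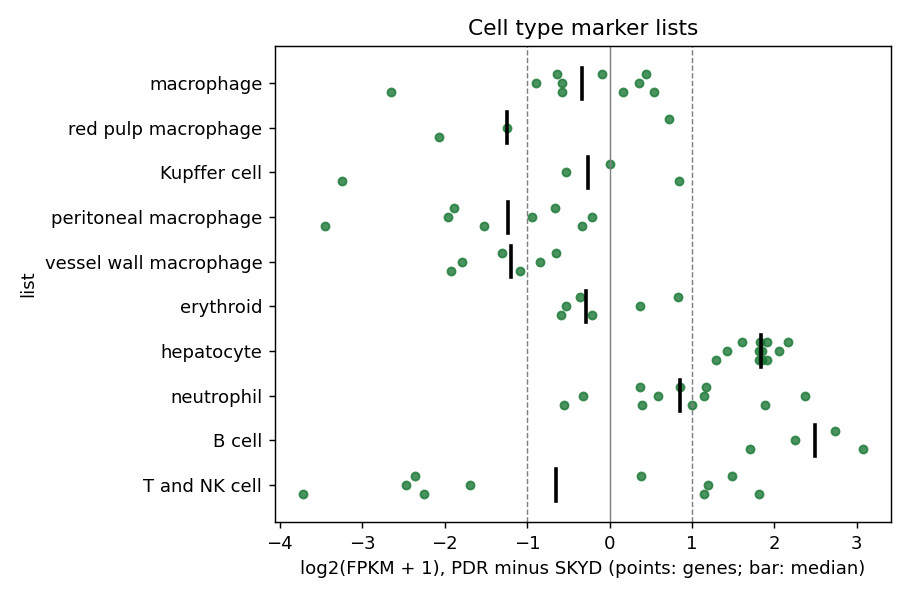
Difference in log2(FPKM + 1), PDR minus SKYD, for each tested gene of the marker lists, with a bar at the median of each list and dashed lines at 2-fold. All 12 hepatocyte markers lie to the right of the upper line, and all 6 vessel wall and all 8 peritoneal macrophage markers lie left of 0.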

How the data were processed

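RNA of sorted macrophages was sequenced in 1 pooled library per group. The authors aligned reads with TopHat 2.0.9, counted them per gene with HTSeq 0.6.1 and deposited FPKM. The labels name build mm9, but 98.3% of the 54409 genes shared with GENCODE M21 (GRCm38) have its start and end, so positions are given on GRCm38.

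Reads were recovered from the file alone, as FPKM times gene length over the smallest step of each library, and came out whole within 0.01. No test was possible with 1 library per group, and no p-value is given. Calls are log2(FPKM + 1) differences past 2-fold at a mean FPKM of at least 1. A count of 0 allows 3 reads. Shared sequence was found as windows of 100 bases on both strands.

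Genes were named by rule: the 10 genes, their copies, pathway genes past 2-fold and the gene of highest mean FPKM in each list. Hmox2, Blvra, Tfrc, Ftmt, Heph, Hephl1, Alb, Apoe, Adgre1, Itgam, Vcam1, Itgad, Clec4f, Klf1, Cd14, F13a1, Marco, Timd4, Vsig4, Tmem14c, Cd79a, Gzma, Cd3d, Cd3e, Cd3g, Lck, Nkg7, Ncr1, Prf1 and Klrb1c were named in addition, after their values were seen. The members and lists were chosen with earlier results of these data known. The steps were tested on simulated data. Alternatives changed the pseudocount, filter, scale, centring, fold, biotype and copies. Protein sequences were not analysed here. Intervals used scipy 1.17.1, tables pandas 2.3.3 and numpy 2.4.6, and figures matplotlib 3.10.9, all under Python 3.11.15.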

Additional observations from a re-analysis of the deposited data

Results flagged for a closer look

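Copies of the iron genes, which stand outside the comparisons of the 10 genes, had reads above the 3 that a count of 0 allows. Ftl1-ps1 had 1977 reads in PDR and 3664 in SKYD, and Ftl2-ps had 1781 and 3056. Their differences, -0.79 (95% CI -0.87 to -0.71) and -0.69 (95% CI -0.77 to -0.60), were in the direction of Ftl1 itself, with which they share sequence, and from which of these genes the reads came was not tested. Hamp2 had 13 reads in PDR and 1 in SKYD, a ratio in FPKM of 13.8 (95% CI 2.08 to 588), and shares no window of 100 bases with Hamp. The other ferritin copies, Ftl1-ps2, Fth-ps2 and Fth-ps3, had at most 3 reads in each library.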

How the results depend on the processing

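No paired analysis was possible because each group had 1 library, and for the same reason no replicate could be left out. Over 13 alternatives, 128 differences of the 10 genes were recomputed, of which 45 equal the main value because the alternative alters only the filter, the fold or other genes. Of the other 83, 62 stayed within their counting interval and 21 moved beyond it; only Slc11a2, whose interval crosses 0, changed sign. Slc40a1 and Slc11a2 gave no value at a mean FPKM of at least 5. For a list, the median of its genes' limits served as the interval.

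At 1.5-fold, counts of the 10 genes were 1 toward PDR and 5 toward SKYD, and of the 77 pathway genes 9 and 16, beside 15.1% and 15.0% of all tested genes. The 10 genes gave 3 toward SKYD, Slc40a1 included, at pseudocounts of 0.1 and 0.01, without a pseudocount and in TPM, beside 9.71%, 10.1%, 9.38% and 7.91% of all tested genes. Pathway genes toward SKYD numbered 8 at pseudocounts of 0.1 and 0.01 and without a pseudocount, where those shares apply too. At a mean FPKM of at least 5, 1 pathway gene was toward PDR, beside 8.06% of all tested genes, with fewer genes tested, and the median of the iron and haem sensors was 0.27. The next alternatives, and the one without a pseudocount, were chosen after seeing the data. Centred on the macrophage markers, the 10 genes gave 1 toward PDR and 1 toward SKYD with a median of -0.27, pathway genes gave 6 and 1, beside 13% and 4.50% of all tested genes, and the medians of haem uptake, iron export and the sensors were 0.087, 0.18 and 0.094, and Prdx1 had 0.30, a shift made by the centring itself. With library sizes without antigen receptor genes, the median of the 10 genes was -0.54 and Prdx1 had 0.028. The cause of the other changes was not tested.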
